A study of Mus musculus with 9 samples.

Results

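Kit, Myb, Cd34, Cd48, Procr, Hoxa9, Meis1, Gata2 and Flt3 are genes by which stem and progenitor cells of the blood are recognised or kept going, and their signals were followed in bone marrow stromal cells of mice with advancing leukemia. The 9 genes were given as a list by name, from 18194 genes on the array, a list drawn up with earlier results of these data known. Where a gene had several probe sets on the Affymetrix arrays, the brightest on average over the 9 arrays was taken as its main one, and all those with a single gene symbol were read, 16 in total. The mice were of strain FVB/NJ, and the stromal cells had been obtained from marrow by sorting away cells with CD45.1, a form of the leukocyte protein CD45, or with Ter119, carried by red cell precursors. There were 3 arrays of wild-type mice (WT), 3 of leukemic recipients with 1 to 5% leukemic cells in their marrow (E, the early phase) and 3 of recipients with 5 to 50% (M, the medium phase), all labelled biological replicates. The labels used here name neither the type of leukemia nor a marker of the leukemic cells, and ages and numbers of mice are not given in them. The study asked how stromal gene expression shifts over the phases.

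Blood stem cells and early progenitors are held in the marrow by stromal cells, which offer the ligand of the receptor Kit. The receptors Kit and Flt3 pass growth and survival signals, and the transcription factors Myb, Gata2, Hoxa9 and Meis1 maintain the immature state. Hoxa9 and Meis1 act together and are well known for their high expression in several acute leukemias. None of the genes is restricted to blood stem cells: Cd34 and Procr are also made by endothelial cells, Cd34 by fibroblasts, Kit and Gata2 by mast cells, and Kit and Myb by early red cell precursors.

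The bases just before the transcription start are shown for Cd34 and Procr, the pair with the largest differences in M, and for Myb and Cd48, a pair that read lower in M. They come from RefSeq (build GRCm38.p6), which held start sites for 9 of the 9 genes, run 5′ to 3′ on the strand of the gene and end at the base before the start. Capitals mark CG pairs, the sites at which mammalian DNA is methylated.
Cd34, chr1:194938571-194938820, plus strand: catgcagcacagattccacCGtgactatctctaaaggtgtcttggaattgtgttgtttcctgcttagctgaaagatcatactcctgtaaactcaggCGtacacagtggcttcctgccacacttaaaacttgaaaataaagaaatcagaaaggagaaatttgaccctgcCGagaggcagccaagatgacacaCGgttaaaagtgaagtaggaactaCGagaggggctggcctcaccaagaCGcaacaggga
Procr, chr2:155750967-155751216, plus strand: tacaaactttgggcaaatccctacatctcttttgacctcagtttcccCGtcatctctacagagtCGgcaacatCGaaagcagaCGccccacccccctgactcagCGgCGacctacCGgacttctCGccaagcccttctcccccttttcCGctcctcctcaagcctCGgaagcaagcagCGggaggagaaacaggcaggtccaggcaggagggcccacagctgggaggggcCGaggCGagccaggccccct
Myb, chr10:21160985-21161234, minus strand: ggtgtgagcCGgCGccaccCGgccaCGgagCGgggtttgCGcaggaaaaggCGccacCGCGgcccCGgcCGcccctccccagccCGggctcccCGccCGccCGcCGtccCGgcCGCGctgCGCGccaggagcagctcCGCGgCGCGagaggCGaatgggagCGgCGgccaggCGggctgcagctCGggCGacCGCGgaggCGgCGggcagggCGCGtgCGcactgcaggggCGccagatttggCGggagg
Cd48, chr1:171681742-171681991, plus strand: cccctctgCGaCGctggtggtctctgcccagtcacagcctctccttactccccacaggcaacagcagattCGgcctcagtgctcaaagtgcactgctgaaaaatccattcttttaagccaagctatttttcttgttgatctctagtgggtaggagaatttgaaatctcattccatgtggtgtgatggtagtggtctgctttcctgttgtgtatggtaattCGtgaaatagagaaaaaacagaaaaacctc

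The 250 bases of Cd34 held 6 CG pairs and those of Procr 13, against a median of 6 over 32851 such windows in the mouse table. The window of Myb held 40, more than 98.7% of all windows, and that of Cd48 held 4. The pair with higher signals in M and the pair with lower signals thus did not part by CG pairs. The letters AGATAA, bound by GATA factors, occurred on neither strand in any of the 11 windows of the 9 genes, and on either strand in 9.99% of all windows. The letters CAGNTG, an E-box bound by Tal1 and its partners, occurred in 2 of the 11, those of Procr and Flt3, and in 44.8% of all windows. These counts describe letters only.

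Each value below is a MAS5 signal on the log2 scale, its precision limited by 3 arrays a group. The arrays of M stood apart from the others in level. As mean ± SD of 3 arrays, the median over all probe sets was 5.64 ± 0.04 for WT, 5.50 ± 0.09 for E and 6.26 ± 0.02 for M. Control RNAs added before labelling (12 poly-A probe sets) stood at 9.11 ± 0.17 for WT, 9.10 ± 0.09 for E and 10.12 ± 0.29 for M. The differences of M below therefore depend on how arrays are brought to one scale. Scaling on the control RNAs lowers each difference of M with WT by 1.01, centring on array medians lowers it by 0.63, and quantile normalization lowers the median over the tested genes by 0.09. The sort was checked against defining markers: Ptprc, which encodes CD45, read between 9.68 and 9.91 in WT, between 9.45 and 9.74 in E and between 10.25 and 11.17 in M. Slc4a1, the anion exchanger of red cell precursors, read between 12.0 and 14.1 over all 9 arrays. Cxcl12 and Lepr, which define stromal cells of the niche, read at most 8.93 and 7.34 in WT and E and at least 12.75 and 11.94 in M. The sorted cells thus carried transcripts of leukocytes and of red cell precursors in every group, and in such bulk samples fewer cells of a type and less RNA per cell cannot be told apart.

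Between M and WT the 9 genes split. Procr rose 11.7-fold, Cd34 rose 7.26-fold and Hoxa9 rose 1.65-fold in M, while Cd48, Myb and Kit fell by less than 0.5 on the log2 scale and Gata2 was not called. These 7 genes lay over the brightness filter (the 9097 genes with the higher mean signal), and 3 were called higher and 3 lower at an adjusted p under 0.05 (limma, Benjamini-Hochberg over the 9097 genes). Of all 9097 genes 68.8% were called, 25.3% higher and 43.5% lower, so that 6 of 7 is near the background. The median difference of M from WT over the 9097 genes was itself -0.19, beside -0.30 for Kit, -0.38 for Myb and -0.46 for Cd48. The 3 arrays of a group lay wholly above or below the other group's in 72.0% of these genes for M with WT, 73.1% for M with E and 29.7% for E with WT. The share of higher calls among all calls was 36.8%, 11.8% with arrays scaled on the control RNAs, and with arrays centred on medians 1262 genes were called higher and 6639 lower. Procr read below the filter in WT and passed it through its signal in M. Flt3 and Meis1 lay under the filter, and their tests come from the fit to all 18194 genes. Between E and WT, 0 of the 7 genes passed, against 2.11% of the 9097 genes. Before adjustment, limma's p was under 0.05 for 1 of the 7, Cd34 (0.00172), and for 1279 of the 9097 genes, a like share. Below the filter it was under 0.05 for Flt3 (0.000176) and Meis1 (0.00247).

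**Figure D1:**
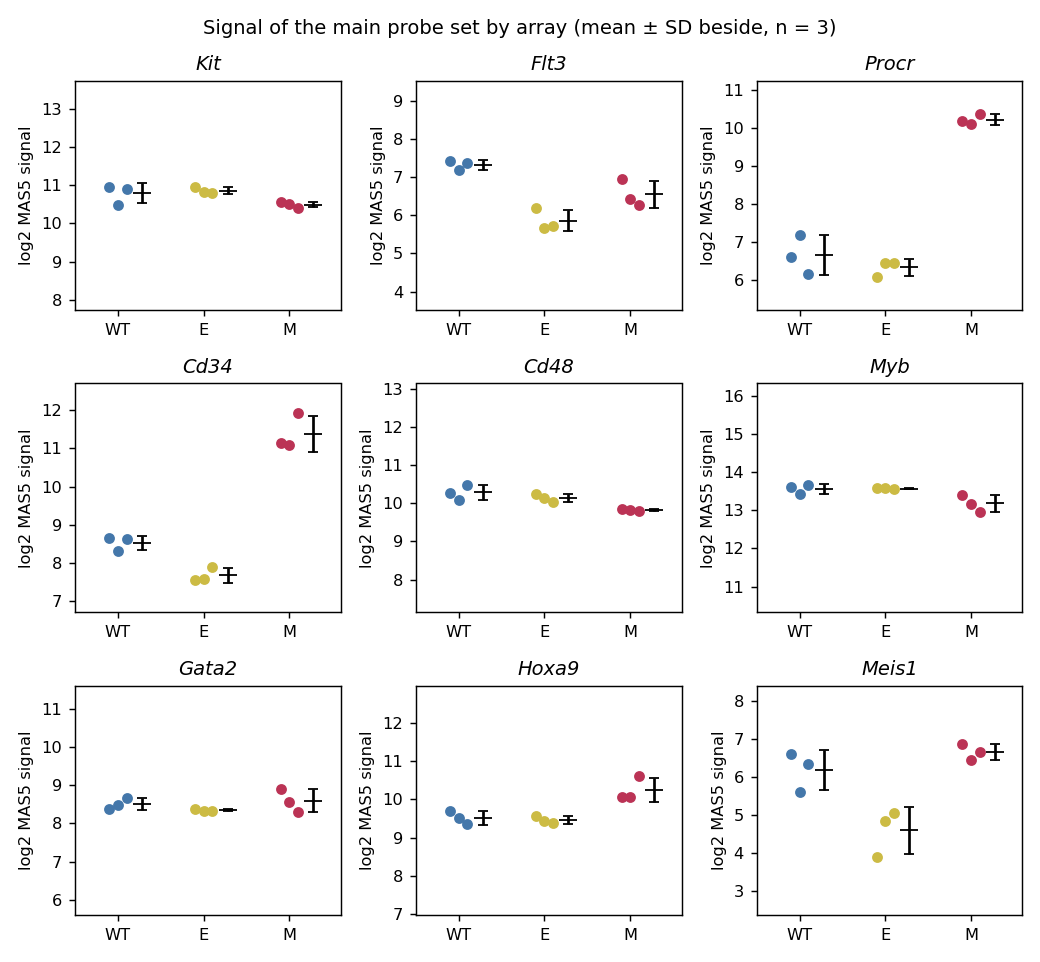
Log2 MAS5 signal (vertical axis, 6 log2 units tall in every panel) of the main probe set of each gene in the 3 arrays of WT, E and M (points), with the mean and SD of each group beside them (bars, n = 3). Procr and Cd34 in M lie above all other arrays, Flt3 in E lies below all others, and Kit, Cd48, Myb and Gata2 move by less than 0.5 between group means.

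Kit, the receptor of stem cell factor, read 10.96, 10.49 and 10.91 in WT, 10.96, 10.81 and 10.80 in E and 10.55, 10.50 and 10.41 in M. The arrays of M lay within or just below the range of WT and below all of E. Kit fell by 0.30 in M against WT (SE 0.12, adjusted p = 0.0386 with limma). The call ended in 9 of 23 alternatives, among them the fit to only the groups compared and those leaving out 1 array (WT 1, WT 3, E 2, E 3, M 2 or M 3; adjusted p up to 0.157). With arrays scaled on the control RNAs Kit fell by 1.31. In E the difference from WT was 0.07 (adjusted p = 0.833). Its dimmer probe set averaged 6.07 in M and 6.36 in WT, a difference of -0.29 that did not pass in the fit to all probe sets (adjusted p = 0.439).

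Flt3, the receptor that drives early lymphoid and myeloid progenitors, has 1 probe set. It read 7.43, 7.18 and 7.37 in WT, 6.18, 5.68 and 5.72 in E and 6.94, 6.44 and 6.26 in M. Every array of E lay below every array of WT and of M, and those of M lay below WT. Flt3 fell 2.76-fold in E against WT (log2 difference -1.47, SE 0.27, adjusted p = 0.0284 in the limma fit to all 18194 genes, where 0.852% of genes were called). It fell 1.72-fold in M against WT (log2 difference -0.78, SE 0.27, adjusted p = 0.0363, with 43.3% of genes called), with log2 differences of -1.40, -1.41 and -1.79 after quantile normalization, centring and control RNA scaling. The fall in E kept its direction in 23 alternatives but lost its call in 9, among them each other scaling and each fit without 1 of the WT arrays, E replicate 2 or E replicate 3 (adjusted p up to 0.136). That in M lost its call in 6, with array weights and without 1 of the WT arrays, M replicate 2 or M replicate 3 (adjusted p up to 0.108).

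Procr, the endothelial protein C receptor, marks stem cells of high purity among blood cells and is abundant on endothelium. It read 6.63, 7.20 and 6.17 in WT, 6.09, 6.47 and 6.47 in E and 10.18, 10.10 and 10.37 in M. The 3 arrays of M lay above the highest of the other 6. The difference of M from WT was 3.55 (SE 0.24, adjusted p = 3.03e-07 with limma), and it stayed between 2.54 and 3.82 over 23 alternatives. In E it was -0.32 from WT (adjusted p = 0.593). Its single probe set is of a kind whose probes can match several transcripts.

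Cd34, a sialomucin on progenitors, endothelium and fibroblasts, read 8.64, 8.31 and 8.62 in WT, 7.56, 7.57 and 7.90 in E and 11.15, 11.08 and 11.92 in M. The groups did not overlap in any pairing, with E lowest and M highest. Cd34 rose by 2.86 in M against WT (SE 0.21, adjusted p = 5.16e-07 with limma), and by 1.85 with arrays scaled on the control RNAs. Against E the rise in M was 13.1-fold (log2 difference 3.71, adjusted p = 4.97e-08). In E it read 1.80-fold lower than in WT (log2 difference -0.85, SE 0.21, adjusted p = 0.0658), which did not pass. That test shares its estimate of spread with the M arrays, and without M replicate 3, in which Cd34 was highest, the same difference had an adjusted p of 0.000648, with a range of 0.000389 to 0.233 over 23 alternatives.

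Cd48, a surface protein of the SLAM family that mature blood cells and committed progenitors carry and stem cells lack, went the other way. It read 10.28, 10.09 and 10.49 in WT, 10.24, 10.14 and 10.04 in E and 9.86, 9.82 and 9.79 in M. All 3 arrays of M lay below all of WT and E, while WT and E overlapped. Cd48 fell by 0.46 in M against WT (SE 0.10, adjusted p = 0.00220 with limma) and by 1.47 with control RNA scaling, and the difference of E from WT was -0.14 (adjusted p = 0.585).

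Myb, a transcription factor of progenitors of all blood lines, read 13.61, 13.42 and 13.65 in WT, 13.58, 13.58 and 13.55 in E and 13.41, 13.18 and 12.97 in M. The arrays of M lay below those of WT and E, if narrowly for M replicate 1. Myb fell by 0.38 in M against WT (SE 0.10, adjusted p = 0.00653 with limma), and by 1.39 with control RNA scaling. Its other probe sets read 0.36 and 0.22 lower in M than in WT, with adjusted p of 0.0171 and 0.0556 in the fit to all probe sets. Between E and WT its main probe set differed by 0.01 (adjusted p = 0.982).

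Gata2, a zinc finger factor needed by stem cells and mast cells, read 8.37, 8.48 and 8.67 in WT, 8.38, 8.33 and 8.33 in E and 8.91, 8.56 and 8.31 in M. The groups overlapped, M most widely. It was 0.08 higher in M than in WT (SE 0.15, adjusted p = 0.639 with limma). This sign turned under each other scaling: the difference was -0.54 with each array centred on its median (adjusted p = 0.00586) and -0.93 on the scale of the control RNAs (adjusted p = 0.000168). Its other probe set averaged 8.01 ± 0.15 in M and 7.70 ± 0.10 in WT (SD, n = 3, adjusted p = 0.166), and was 0.55 higher in M than in E (adjusted p = 0.0167, limma, all probe sets).

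Hoxa9, a homeobox factor of stem and progenitor cells, read 9.71, 9.51 and 9.35 in WT, 9.58, 9.44 and 9.38 in E and 10.06, 10.07 and 10.61 in M. All arrays of M lay above all of WT and E. Hoxa9 rose by 0.72 in M against WT (SE 0.15, adjusted p = 0.00132 with limma), but the difference was 0.10 with each array centred on its median (adjusted p = 0.587) and -0.29 on the scale of the control RNAs (adjusted p = 0.199). Its dimmer probe set rose as well, by 0.87 (adjusted p = 0.0273 in the fit to all probe sets). In E the main probe set differed from WT by -0.06 (adjusted p = 0.899).

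Meis1, the DNA-binding partner of Hoxa9, was dim. Its main probe set read 6.60, 5.61 and 6.33 in WT, 3.89, 4.85 and 5.06 in E and 6.87, 6.45 and 6.66 in M, so that E lay below the other 6 arrays. In E it was 1.58 lower than in WT (SE 0.41, adjusted p = 0.137, limma, all 18194 genes), which did not pass. It rose 4.17-fold in M against E (log2 difference 2.06, adjusted p = 0.00124) and differed by 0.48 between M and WT (adjusted p = 0.401), a sign that turned under each other scaling. Its probe sets disagreed: one read 2.50 higher in M than in E (adjusted p = 0.0218) and the last differed by 0.11 (adjusted p = 0.893), both from the fit to all probe sets.

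**Figure D2:**
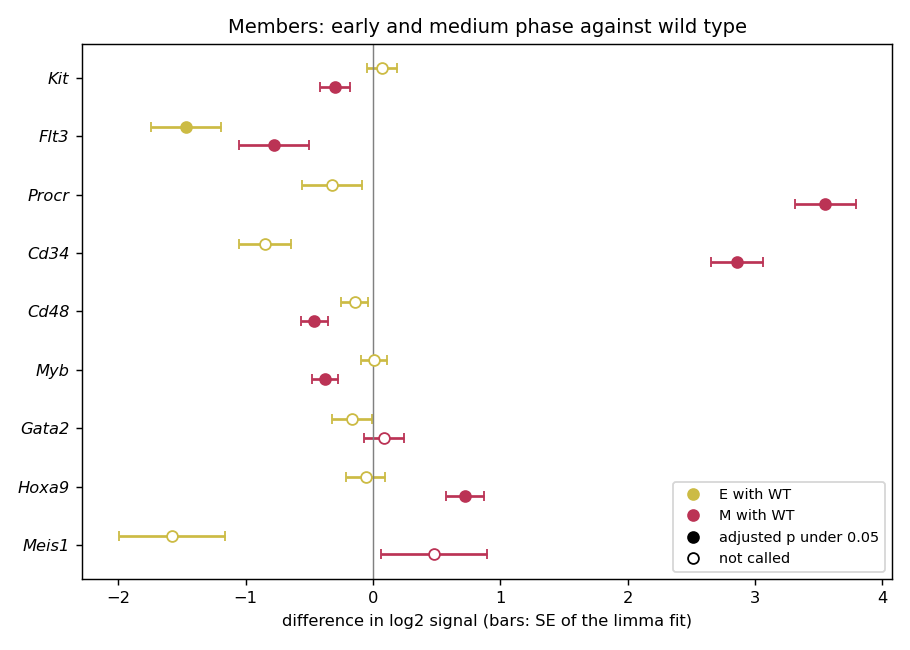
Difference in log2 signal (horizontal axis) of E with WT and of M with WT for the 9 genes, with the SE of the limma fit as bars. Filled points have an adjusted p under 0.05 and open points do not. Procr at 3.55 and Cd34 at 2.86 in M lie far to the right, and Flt3 at -1.47 and Meis1 at -1.58 in E to the left.

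Between M and E, 3 of the 7 genes over the filter were higher (Procr, Cd34 and Hoxa9) and 3 lower (Kit, Myb and Cd48), against 70.0% of all 9097 genes called, 26.1% higher and 43.9% lower. In the fit to all 18194 genes 45.5% were called, 24.1% higher and 21.4% lower. Procr rose 14.7-fold (adjusted p = 1.17e-07), and Hoxa9 rose 1.72-fold (adjusted p = 0.000732, but log2 differences of 0.02 and -0.24 with arrays centred on medians or scaled on the control RNAs). Kit fell by 0.37, Myb by 0.39 and Cd48 by 0.32 (adjusted p = 0.0145, 0.00565 and 0.0178, limma). The median difference of M from E over the 9097 genes was -0.19. Without E replicate 1 the calls of Kit and Cd48 ended (adjusted p = 0.0600 and 0.0740), as did that of Myb after quantile normalization (0.0653). Gata2 was 0.25 higher in M than in E (adjusted p = 0.168), passed without M replicate 3 (0.0201) and turned in sign under each other scaling. Flt3 was 0.69 higher in M than in E and did not pass (adjusted p = 0.0594, all 18194 genes). It passed without E replicate 1 (0.0419) or M replicate 3 (0.0328), and its sign turned under each other scaling. These values share the M arrays with the comparison to WT.

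The signed change after E was compared with that before it in the same fit, as M minus E less E minus WT, so that a positive value means a change further upward in the second step, not a larger one. Of the 7 genes over the filter, Cd34 (4.55), Procr (4.20) and Hoxa9 (0.84) had a more upward second step (adjusted p = 2.46e-06, 1.34e-05 and 0.0190, limma), while 51.2% of all 9097 genes were called and 20.6% were called in that direction. That of Hoxa9 had adjusted p of 0.0670 and 0.0794 without E replicates 2 or 3, and its sign turned with arrays centred on medians or scaled on the control RNAs. In the fit to all genes Meis1 (3.64, adjusted p = 0.00202) and Flt3 (2.15, adjusted p = 0.00424) were called too, beside 30.6% of all genes and 16.4% in that direction. For Flt3 this joined a first step of -1.47 to a smaller second step of 0.69 that did not pass. The call of Flt3 ended under each other scaling (adjusted p up to 0.180).

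**Figure D3:**
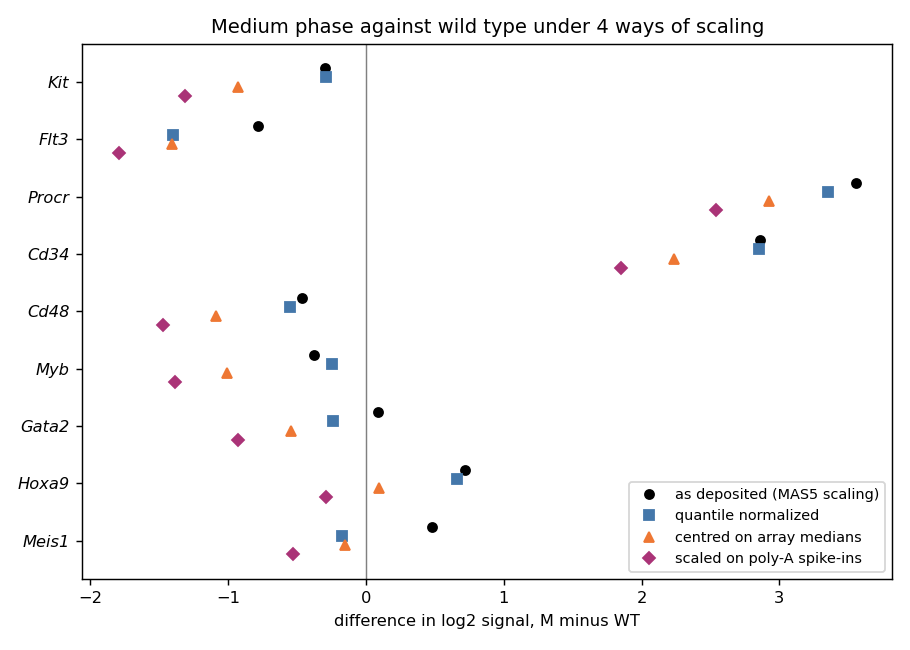
Difference in log2 signal of M minus WT (horizontal axis) for the 9 genes with values as deposited, after quantile normalization, with arrays centred on their medians and with arrays scaled on the poly-A control RNAs. Procr and Cd34 stay above 0 and Kit, Flt3, Cd48 and Myb stay below 0 in all 4, while Gata2, Hoxa9 and Meis1 cross 0.

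The genes whose centred profiles over the 9 arrays lay nearest to a member were found by the root mean square log2 difference, among the 9097 tested genes. Nearest to Cd34 were Il6st, the shared receptor of interleukin 6 family cytokines (0.12), and Tcfl5, a transcription factor gene (0.12), where the median gene lay at 1.70. Il6st averaged 8.26 in WT, 7.49 in E and 11.03 in M. Nearest to Procr were Csrp2, a LIM domain protein of smooth muscle (0.20), and the growth factor receptor Fgfr1 (0.20), which averaged 6.75 in WT, 6.40 in E and 10.41 in M. Nearest to Hoxa9 were Osbpl1a (0.08) and Sumf1 (0.08). Nearest to Myb were Cks2, a cell cycle kinase subunit (0.05), and Nae1 (0.06), nearest to Kit B3gat3 and Gtf3c5 (0.08 each), nearest to Cd48 Casp8 (0.07) and Nmt1 (0.08), and nearest to Gata2 Uhrf2 (0.07) and Atp6v1e1 (0.09). Among the members themselves, Kit and Myb (0.11), Kit and Cd48 (0.12) and Myb and Cd48 (0.13) had the closest pairs of profiles. All 9 points of such a profile share the gap between M and the other arrays. Procr, Csrp2 and Fgfr1 averaged below the cut of the brightness filter (6.83) in WT and E. Genes as dim as these in WT and E thus entered the search only if they were high in M.

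Other genes of stem and progenitor cells were read from lists chosen by function, in the limma fit to all 18194 genes, where 22.2% were called higher and 21.1% lower in M than in WT and the median difference was 0.11. Of 19 further transcription factors 11 rose, 5 fell and 3 did not pass, with a median of 0.99. With arrays scaled on the control RNAs 2 rose and 8 fell, with a median of -0.02 where that of all genes was -0.90, and without M replicate 3, 7 rose and 5 fell. Those with the largest changes were Gfi1, a repressor of stem cells and granulocytes (a difference of 3.16, adjusted p = 1.48e-05), Fli1, an ETS factor (2.01, 1.04e-07), Mecom (1.66, 0.00148) and Cebpa, the factor of granulocyte precursors (1.61, 0.00152). Mecom and Cebpa did not lie over the brightness filter. Gfi1 averaged 5.86 in WT and 5.71 in E, below the cut of that filter (6.83), and passed it through its signal in M (9.01). In E, 1 of the 19 passed, where 0.852% of all 18194 genes were called. Sox4, singled out after its values were seen, averaged 10.46 ± 0.07 in E and 11.14 ± 0.04 in WT (SD, n = 3). Under control RNA scaling 0 of the 19 passed in E.

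Of 15 measured surface proteins of these cells, 12 rose, 1 fell and 2 did not pass in M, with a median of 1.70, and 5 rose and 2 fell with arrays scaled on the control RNAs. Thy1, which stroma and T cells carry as well, rose by 5.36 (adjusted p = 1.68e-05). Prom1, a membrane protein of immature and epithelial cells, rose by 5.11 (adjusted p = 1.00e-07). Cd33 averaged 6.28 ± 0.63 in M and 3.09 ± 0.98 in WT (SD, n = 3, adjusted p = 0.00344). Tek, the angiopoietin receptor of endothelium and stem cells, rose by 3.09 (adjusted p = 1.08e-06). Thy1, Prom1, Cd33 and Tek did not lie over the brightness filter. In E, 1 of the 15 passed, where 0.852% of all 18194 genes were called. Cd93, singled out after its values were seen, read 0.99 lower in E than in WT (adjusted p = 0.00251, limma fit to all genes). It read 1.05 higher in M than in WT.

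Among 17 HOX, MEIS and PBX relatives 5 rose, 1 fell and 11 did not pass in M, with a median of 0.53. With arrays scaled on the control RNAs 1 rose and 4 fell. Of all 18194 genes 22.2% were called higher, so that 5 higher of 17 is near the background. Hoxa10, the neighbour of Hoxa9 in the cluster, rose 10.4-fold (adjusted p = 1.41e-05) and kept its direction under each scaling. Meis2 rose 4.30-fold (adjusted p = 0.00121), Hoxa11 3.57-fold (0.0186) and Hoxb2 2.57-fold (0.00557), the last 2 losing their calls in 6 and 3 of 23 alternatives. Hoxa10, Meis2, Hoxa11 and Hoxb2 averaged 5.55, 4.70, 5.01 and 5.98 in WT and did not lie over the brightness filter. Of 8 GATA and MYB relatives 3 fell and 5 did not pass. Gata1, the factor of red cells, fell by 0.86 (adjusted p = 9.38e-06), Mybl2 by 0.84 (0.00422) and Zfpm1, the cofactor of Gata1, by 0.76 (0.00287).

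Ligands and partners of the member receptors gave 6 measured genes, of which 4 rose and 2 did not pass in M. Kitl, the ligand of Kit, averaged 10.54 ± 0.20 in M and 6.36 ± 0.36 in WT (SD, n = 3), an 18.2-fold rise (adjusted p = 1.37e-08) beside the fall of Kit. Thbd, thrombomodulin, which acts with Procr in activating protein C, rose 6.65-fold (adjusted p = 8.96e-08). F2r, the thrombin receptor that activated protein C cleaves when bound to Procr, rose 3.80-fold (adjusted p = 5.41e-05), and Selp rose 2.78-fold (0.00150). Flt3l, the ligand of Flt3, is not analysed here. In E, Kitl read 0.57 lower than in WT (adjusted p = 0.333). Kitl and Selp averaged below the cut of the brightness filter (6.83) in WT and E and passed it through their signals in M.

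**Figure D4:**
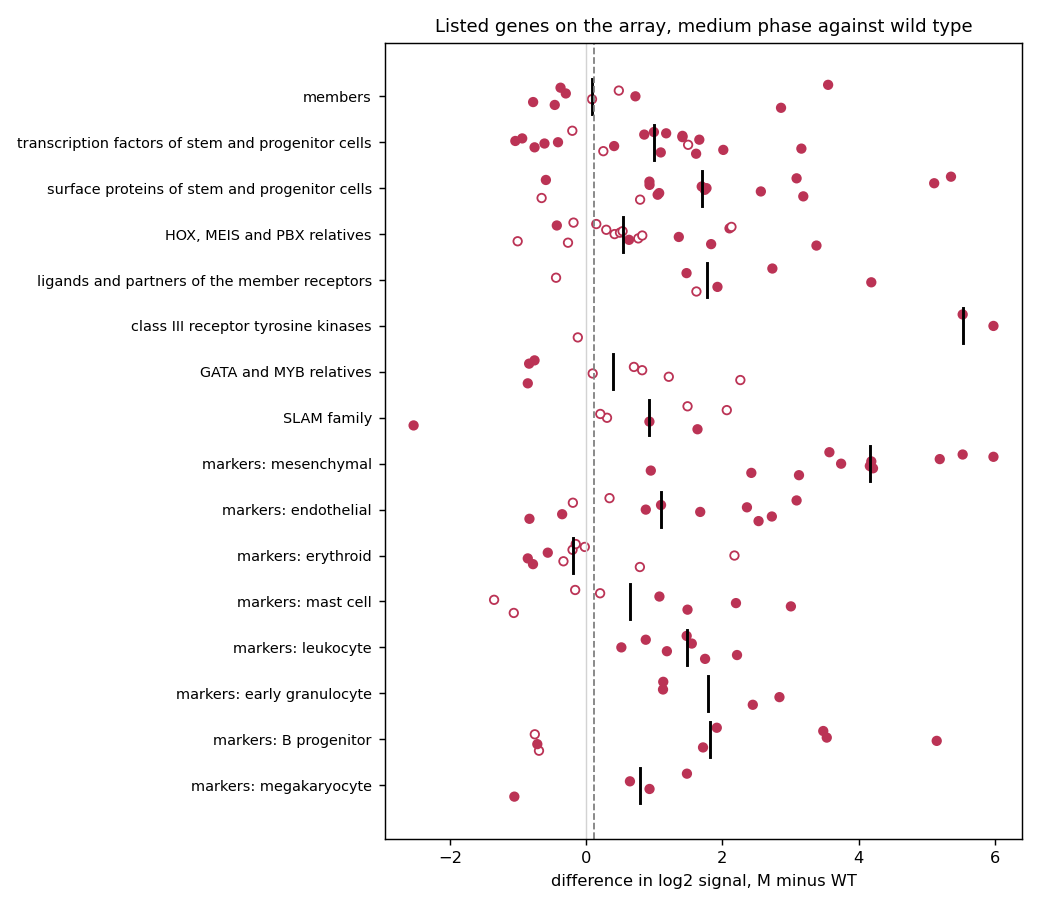
Difference in log2 signal of M minus WT (horizontal axis) for each listed gene on the array, filled where the adjusted p over all 18194 genes was under 0.05, with the median of each list as a black bar and that of all genes, 0.11, as a dashed line. The members fall on both sides of the dashed line, and all 11 mesenchymal markers lie to its right.

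Markers of other cells that make these transcripts moved too, and the counts depend on the scaling. Of all 18194 genes 22.2% were called higher and 21.1% lower in M than in WT. All 11 mesenchymal markers rose in M (10 with arrays scaled on the control RNAs), and their summed linear signal ranged from 79970 to 93981 in M against 15343 to 18164 in WT. Of 11 endothelial markers 7 rose and 2 fell (3 and 3 with control RNA scaling, 4 and 2 without M replicate 3), with sums of 2056 to 2597 in M and 1557 to 1716 in WT. Cdh5, which defines endothelium, read 7.79, 7.69 and 8.50 in M against 5.86, 4.48 and 6.04 in WT. It did not lie over the brightness filter. The 2 endothelial markers over that filter were the 2 that fell with values as deposited. Egfl7 differed by -0.83 (adjusted p = 0.000522, limma fit to all genes) and Eng by -0.35 (adjusted p = 0.00842) between M and WT. Of 8 mast cell markers 4 rose (2 with control RNA scaling), with sums of 873 to 1675 in M and 392 to 432 in WT. Cpa3, a mast cell protease, read 8.81, 8.29 and 9.25 in M against 7.39, 7.22 and 7.27 in WT. The 4 that did not pass were the other proteases of the list. Cma1, Mcpt4, Tpsb2 and Tpsab1 differed by -1.06, -1.35, -0.16 and 0.20 between M and WT. Mesenchymal, endothelial and mast cells are among the cell types beside blood progenitors that make Cd34, Procr, Kit or Gata2. Early red cell precursors make Kit as well.

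Blood cell markers were mixed. All 7 leukocyte markers rose (3 with control RNA scaling), with sums of 8832 to 16038 in M and 4411 to 4891 in WT, and Ptprc differed by 0.87 (adjusted p = 0.00189), a sign that turned with that scaling. All 4 early granulocyte markers rose (2 with control RNA scaling), with sums of 27022 to 28956 in M and 8521 to 9482 in WT. Of 9 erythroid markers 0 rose and 3 fell (7 with control RNA scaling, and 2 rose without M replicate 3), with sums of 42667 to 81182 in M and 72340 to 80906 in WT. Of 8 B progenitor markers 5 rose and 1 fell (4 and 2 with control RNA scaling), with sums of 2060 to 4146 in M and 488 to 598 in WT. Ebf1 rose most of these (5.15, adjusted p = 6.00e-08, limma fit to all genes), and Dntt fell by 0.72 (adjusted p = 0.0175). Pax5 and Cd79a, both dim, differed by -0.75 and -0.69 and did not pass. Of 4 megakaryocyte markers 3 rose and 1 fell (0 and 1 with control RNA scaling), with sums of 1589 to 1865 in M and 1006 to 1148 in WT. In E, Flt3, Meis1 and Cd34 lay below WT. The leukocyte sum there was 3155 to 3415, the early granulocyte sum 6762 to 6960 and the erythroid sum 64919 to 68734, all below WT. The mesenchymal sum was 21191 to 23090, the endothelial sum 1848 to 1989 and the B progenitor sum 691 to 818, all above WT. The mast cell and megakaryocyte sums overlapped WT. In E 0 of the leukocyte, erythroid and B progenitor markers passed, where 0.852% of all genes were called. Of the 4 early granulocyte markers Mpo passed (-0.55, adjusted p = 0.00177, limma fit to all genes) and Elane differed by 0.17 (adjusted p = 0.677). The endothelial sum rests on its brightest genes, Eng (0.33 higher in E than in WT, adjusted p = 0.174) and Egfl7 (0.28, adjusted p = 0.555): the median difference over the list was -0.16, and Cdh5 differed by -0.32 (adjusted p = 0.864). The mesenchymal sum rests largely on its brightest gene, Col1a2, which averaged 14.03 in E and 13.62 in WT (adjusted p = 0.0363, limma fit to all genes). Col1a1 was called higher in E as well (0.66, adjusted p = 0.0448), and the other 9 mesenchymal markers did not pass. Those 9 included Pdgfra at 1.24 and Foxc1 at -0.66, and the median difference over the mesenchymal list was 0.09. No marker read 0 on all arrays. M replicate 3 had the highest sum of its group for 7 of the 8 marker lists and the lowest for the erythroid one, and also the highest Cd34, Procr and Hoxa9 and the lowest Kit, Myb, Cd48, Gata2 and Flt3. The part of these cells in the members' differences was not tested.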

How the data were processed

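The authors deposited 1 log2 signal per probe set and array, made with MAS5 per the submitters' processing notes (version not given), from RNA labelled with a 3′ kit per the labels' protocols. Trimmed of 2% at each end, the mean linear signal was 500.0 on every array. Of 45101 probe sets, 34958 had 1 gene symbol, 932 several and 9211 were not listed. Values were used as deposited, so the planned pseudocount of 16 was not needed. Genes at or above the median mean (6.83) entered a limma fit (version 3.58.1, R 4.3.3, all 9 arrays, intensity trend, Benjamini-Hochberg, calls under 0.05). Genes below it, and the gene lists, come from the same fit to all 18194 genes, and single probe sets from a fit to all 34958. SE values are of the model. The pipeline was tested on simulated data. Named genes were the members, the ligand Kitl, the up to 4 called genes of each list with the largest difference of M with WT, and the 2 nearest profiles. The members and lists were chosen with earlier results of these data known. Alternatives were other pseudocounts, filters, scalings, spread estimates, probe set rules, a replicate block and each array left out. Detection calls were not used here.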

Additional observations from a re-analysis of the deposited data

How the results depend on the processing

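The counts of members called in M with WT (4 to 7 over 23 alternatives, 5 to 6 with 1 array left out) and in M with E (4 to 8) stayed within 1.5 times their values. The split did change: 3 higher and 3 lower became 2 and 4 in both comparisons, with arrays centred or scaled on the control RNAs. In M with WT, Hoxa9 lost its call there and Gata2 was called lower. In E with WT 0 members were called, but 1 without the filter (Flt3) and 1 (Cd34) with scaling on the control RNAs, array weights, only the groups compared, or the replicate block, 1 with probe sets averaged, and 0 to 1 with 1 array left out. The second step was called in 3 members, but in 5 without the filter, with arrays centred or scaled on the control RNAs, or with probe sets averaged, in 6 with array weights and in 1 among the 4549 brightest genes, where fewer members are tested (2 to 4 with 1 array left out).

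Signs that turned were the following, and the cause was not tested. In E with WT, Myb was -0.041 after quantile normalization and Hoxa9 0.077 with centring. With 1 array left out Kit lay between -0.078 and 0.16, Myb between -0.062 and 0.054 and Hoxa9 between -0.15 and 0.034. In M with WT, after quantile normalization, centring and control RNA scaling, Gata2 was -0.24, -0.54 and -0.93 and Meis1 -0.17, -0.15 and -0.53. Hoxa9 was -0.29 with the last, and Gata2 lay between -0.073 and 0.23 with 1 array left out. In M with E the same 3 scalings gave Gata2 -0.12, -0.51 and -0.77 and Flt3 -0.077, -0.076 and -0.33, and the last gave Hoxa9 -0.24. For the second step, centring and control RNA scaling gave Hoxa9 -0.058 and -0.18 and Gata2 -0.48 and -0.61.

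Of all genes tested, 192 were called in E with WT, but 118 after quantile normalization, 85 among the 4549 brightest, 848 with array weights, 756 with only the groups compared, 99 with probe sets averaged, and 98 to 836 with 1 array left out (836 without M replicate 3). Centring made 56.0% of those calls higher, against 21.9%. M with WT had 6259 calls, M with E 6368 and the second step 4661, against 3466, 3485 and 2633 among the 4549 brightest, and the second step had 7526 with centring and 7055 with control RNA scaling. Same-numbered arrays shared only a number: the 9 correlations of their deviations lay between -0.10 and 0.08, and in 6 of 18 cases an array correlated best with its own number. The replicate block gave 6 called members in M with WT, 6 in M with E and 3 in the second step.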

Other observations

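The relatives of the member receptors by protein family were not described above. Of 7 measured SLAM family genes beside Cd48, 2 rose, 1 fell and 4 did not pass in M against WT (limma, all 18194 genes). Of all 18194 genes 22.2% were called higher and 21.1% lower, so that these counts are near the background. Slamf1, the stem cell marker CD150, rose by 0.93 (adjusted p = 0.00540), but was -0.08 with arrays scaled on the control RNAs. Slamf1 averaged 6.77 in WT and 6.62 in E, below the cut of the brightness filter (6.83), and passed it through its signal in M. Cd84 rose by 1.63 (adjusted p = 0.00108) and Ly9 fell by 2.53 (adjusted p = 0.00663). Neither lay over the brightness filter, and Ly9 was dim in both groups, at 4.97 ± 0.91 in WT and 2.44 ± 0.70 in M (SD, n = 3). Of the class III receptor tyrosine kinases, to which Kit and Flt3 belong, Pdgfra and Pdgfrb rose 63.1-fold and 46.1-fold in M (adjusted p = 6.44e-09 and 2.03e-10). Csf1r, the macrophage receptor of the class, singled out after its values were seen, averaged 8.78 ± 0.17 in E and 9.66 ± 0.16 in WT (SD, n = 3), and fell by 0.88 in E (adjusted p = 0.00251). It differed by -0.12 between M and WT (adjusted p = 0.438).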
